A study of Mus musculus with 4 samples.

Results

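The 10 core and naive pluripotency transcription factors Pou5f1, Sox2, Nanog, Klf2, Klf4, Klf5, Esrrb, Tfcp2l1, Tbx3 and Zfp42 were followed across 4 libraries of mouse embryonic stem cells. They were taken by gene symbol, and all 10 were found among the 25170 genes of the deposited tables and passed the filter on low values. The groups had 1 library each. WT was wild-type cells, under the column name E14, SO was wild-type cells under a treatment that the series text calls an inhibitor, and Ldha_KO and Ldhb_KO were knockouts of the genes for the A and B subunits of lactate dehydrogenase. The labels do not spell out SO or state its dose and time, and the label field for culture treatment describes all 4 libraries as normally cultured. Serum and LIF were in the medium of all groups, on gelatin-coated plates. The labels do not state whether a knockout line is 1 clone or a pool. The study's title asks about lactate dehydrogenase A, lactylation of Hdac1 and the 2-cell state.

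Pluripotency in mouse embryonic stem cells rests on a small network of transcription factors. Pou5f1 (Oct4) and Sox2 bind DNA together and, with Nanog, form its core. Around the core, LIF acts through Stat3 on Klf4 and Tfcp2l1, Tbx3 is tied to phosphoinositide 3-kinase signalling, and Esrrb is released from repression by Tcf7l1 when Wnt signalling is active. Klf2, Klf4 and Klf5 are related zinc finger factors with overlapping roles, and Zfp42 (Rex1) is a widely used marker of the naive state. Cells that enter the 2-cell-like state are known to lose Oct4, Sox2 and Nanog protein while keeping their transcripts, so RNA levels do not report the protein.

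The targeted genes followed the labels. Ldha measured 1774 FPKM in WT, against 1711 (SO), 154 (Ldha_KO) and 2237 (Ldhb_KO), and Ldhb was at 76.5, 139, 158 and 5.74 in the same order. FPKM is a read count scaled by transcript length and library depth. The relative depth, with WT at 1, was 1.05 (SO), 0.995 (Ldha_KO) and 1.05 (Ldhb_KO). Among genes below 0.2 FPKM, the ratio of the values of 2 libraries gathers where both hold the same number of reads. For WT and SO, 348 of 1477 such genes lay within 1% of that ratio, and their 10th to 90th percentiles spanned 0.0167%. In every other pair of libraries that span was 0.218% to 0.604%, so both knockouts stand apart from WT and SO in this measure. The labels name no batch, and the part of this in the results was not tested. Genes with at least 5 FPKM in every library had a median ratio to WT of 0.927 (SO), 0.933 (Ldha_KO) and 0.917 (Ldhb_KO), which is a shift of -0.11, -0.10 and -0.12 on the log2 scale. Markers of other cell types were low. Fibroblast markers summed to 42.1 to 52.5 FPKM, of which Thy1 made 36.9 to 47.4, with 3 of 10 markers past the filter and Lum and Dcn listed at 0 in every library. Trophectoderm markers (5 of 8 past the filter) summed to 50.9 in WT, the lowest, and 82.5 in Ldhb_KO, the highest. Of the 5, 3 lay above WT in Ldhb_KO and 2 below. Tfap2c, Krt18 and Krt8 made 9.80, 14.8 and 19.7 of the sum in WT and 26.1, 29.0 and 22.3 in Ldhb_KO. Eomes went the other way, from 4.84 in WT to 3.77 in Ldhb_KO, and Cdx2 was at 0.433 in WT and 0.0749 in Ldhb_KO, its lowest. Primitive endoderm markers (5 of 9) summed to 18.6 in WT and 21.3 in Ldhb_KO and to 37.8 in SO and 35.1 in Ldha_KO. Col4a1 made 6.67 and 5.96 of these sums in WT and Ldhb_KO and 23.8 and 17.1 in SO and Ldha_KO. Lama1 made 7.72 and 7.53 in WT and SO and 11.9 and 11.5 in Ldha_KO and Ldhb_KO. Gata6, Sox17, Pdgfra and Foxa2 were below 1 in every library. Neuroectoderm markers summed to 9.33 to 14 and mesoderm markers to 2.14 to 3.5, with 2 of 6 past the filter in each. Neurod1 was at 1.56 in WT, against 8.06 (SO), 3.00 (Ldha_KO) and 3.31 (Ldhb_KO), a difference of 1.82 in SO. Nes was at 5.88, 5.24, 7.54 and 5.72 in the same order. The part of these markers in the results was not tested. In bulk RNA, fewer cells of a type and less RNA per cell cannot be told apart.

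The 250 bases before the RefSeq start of 4 of the factors are shown as examples. They hold letters that the network's own proteins are known to read, as those of Klf2, Klf4 and Esrrb also do. Capitals mark matches, on either strand, to 5 short motifs. The octamer motif, the core of the site bound by POU factors, was searched as ATGCAAA. The Sox motif was searched as ACAATG. The nuclear receptor motif, the element read by the protein family of Esrrb, was searched as AGGTCA. The motif of Sp and Klf proteins was searched in its first form as GGGCGG. Its other form, to which Klf factors are known to bind, was searched as GGGTGGG. Matches overlapped only in Klf4, where 2 of the first form share a base. All sequences run 5′ to 3′ along the gene's strand in GRCm38.p6.
Pou5f1, chr17:35505782-35506031, plus strand: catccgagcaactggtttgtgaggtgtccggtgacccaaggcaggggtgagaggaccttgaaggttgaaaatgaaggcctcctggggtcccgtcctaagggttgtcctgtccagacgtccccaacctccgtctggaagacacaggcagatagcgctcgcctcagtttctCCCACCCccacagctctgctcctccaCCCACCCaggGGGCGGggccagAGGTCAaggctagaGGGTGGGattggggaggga
Sox2, chr3:34649745-34649994, plus strand: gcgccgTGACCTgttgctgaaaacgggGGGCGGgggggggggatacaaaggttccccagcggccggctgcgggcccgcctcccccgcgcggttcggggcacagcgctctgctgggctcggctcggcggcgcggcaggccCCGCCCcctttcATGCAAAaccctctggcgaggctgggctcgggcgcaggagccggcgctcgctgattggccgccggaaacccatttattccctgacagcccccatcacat
Nanog, chr6:122707239-122707488, plus strand: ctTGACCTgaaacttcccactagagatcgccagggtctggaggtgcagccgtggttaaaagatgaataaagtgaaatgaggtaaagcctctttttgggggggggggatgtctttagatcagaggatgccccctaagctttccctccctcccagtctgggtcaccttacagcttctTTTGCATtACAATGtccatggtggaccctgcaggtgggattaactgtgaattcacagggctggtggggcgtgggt
Zfp42, chr8:43307010-43307259, minus strand: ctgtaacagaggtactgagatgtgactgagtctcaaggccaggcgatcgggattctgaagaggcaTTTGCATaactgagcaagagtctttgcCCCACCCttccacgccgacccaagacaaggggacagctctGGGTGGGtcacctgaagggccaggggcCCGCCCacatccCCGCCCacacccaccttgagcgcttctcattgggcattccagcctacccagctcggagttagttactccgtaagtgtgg

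RefSeq's table held windows for 8 of the 10 factors, and where it gave several starts the outermost was used. The octamer motif was found in 3 of the 8, Sox2, Nanog and Zfp42, against 4.12% of all 32851 windows of this length. In Nanog it lies at -75 to -69 on the minus strand, and after 1 base the only Sox match in the 8 windows follows at -67 to -62. That arrangement, a form of the composite site that Oct4 and Sox2 are known to bind together, was found in 2 windows of the whole table. Both were of Nanog, from 2 starts, and may hold the same site. Only these exact letters were searched, so other forms of the site were missed. The Sox motif was in 10.7% of all windows. The nuclear receptor motif was in 3 of the 8, and the forms of the Sp and Klf motif in 5 and 4, against 14%, 32.7% and 15.8% of all windows. These matches describe letters and are not measured sites. The 3 genes with the octamer motif did not share a pattern of levels: in Ldha_KO against WT, on the log2(FPKM + 1) scale, Sox2 differed by -0.86, Nanog by 0.23 and Zfp42 by -0.25.

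The factors were among the most abundant transcripts. Pou5f1 lay above 99.8% of all genes in every library, and Tfcp2l1, the lowest, above 87.4% to 91.0%. Together the 10 made 0.728% of the summed value of WT, against 0.713% (SO), 0.691% (Ldha_KO) and 0.694% (Ldhb_KO). By mean level the order was Pou5f1, Zfp42, Nanog, Sox2, Klf2, Esrrb, Klf4, Klf5, Tbx3 and Tfcp2l1. The ranges over the 4 libraries did not overlap between Pou5f1 and Zfp42, Nanog and Sox2, Esrrb and Klf4, Klf5 and Tbx3, or Tbx3 and Tfcp2l1. The other neighbours could not be ordered beyond their spread: Zfp42 exceeded Nanog in 2 of 4 libraries, and Sox2 exceeded Klf2, and Klf4 exceeded Klf5, in 3 of 4. Klf2 exceeded Esrrb in all 4, although their ranges overlap. The widest ranges belonged to Sox2 and Tbx3 (the highest library was 1.9 times the lowest for both), and the narrowest to Esrrb (1.2 times) and Zfp42 (1.25 times).

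**Figure D1:**
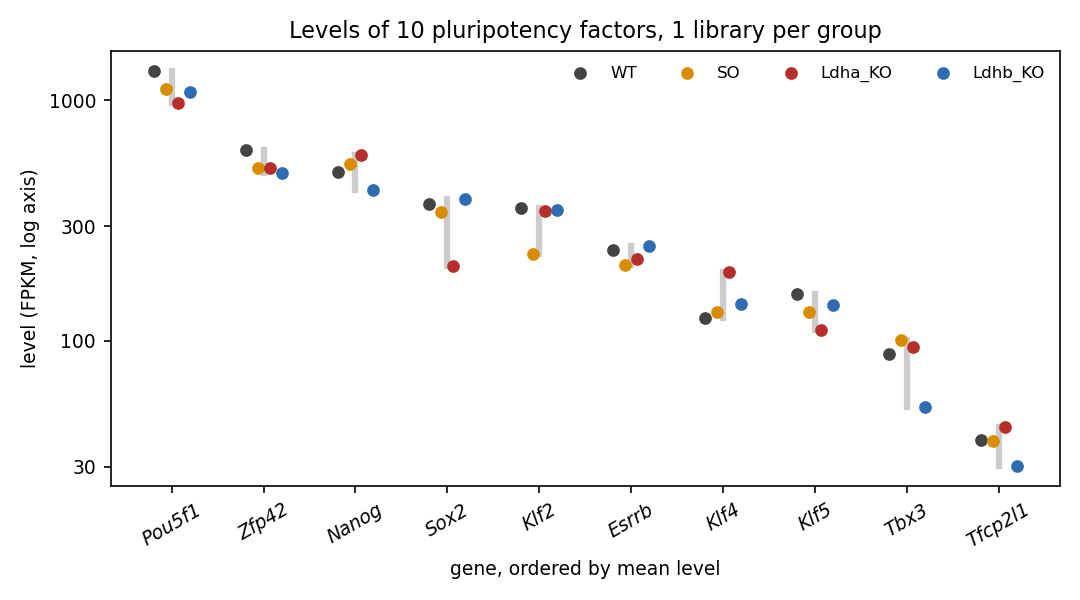
Level of each factor in FPKM (log axis) in the 4 libraries, 1 point per library, with a grey bar from the lowest to the highest library. Pou5f1 is highest in every library and Tfcp2l1 lowest; Sox2 in Ldha_KO (204), Klf2 in SO (229.9) and Tbx3 in Ldhb_KO (53.3) lie below the other libraries of the same gene.

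No factor reached 2-fold in any comparison. In SO against WT, where 3.16% of the 13142 genes passed 2-fold, 1 of 10 factors passed 1.5-fold lower (Klf2; background 4.29%) and 0 passed it higher (background 8.28%). In Ldha_KO against WT, where 3.71% of genes passed 2-fold, Sox2 passed 1.5-fold lower (background 6.31%) and Klf4 higher (background 8.94%). In Ldhb_KO against WT, where 4.44% of genes passed 2-fold, Tbx3 passed 1.5-fold lower (background 7.2%) and 0 factors passed it higher (background 12.6%). Between the knockouts, where 3.2% of genes passed 2-fold, Sox2 was lower (background 8.09%) and Tbx3 higher (background 6.51%) in Ldha_KO. Among the 3316 genes with a mean of at least 30 FPKM, as every factor has, 7.24%, 8.69%, 12.2% and 7.72% passed 1.5-fold either way in these comparisons. With 10 factors, 1 or 2 calls are too few to be told from these shares, so the counts set the factors apart from other abundant genes in no comparison. The factors' median differences from WT were -0.16, -0.09 and -0.20, and those of the 3316 genes were -0.19, -0.16 and -0.19. The 3 comparisons with WT share that library, so a deviation of WT itself enters all of them.

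**Figure D2:**
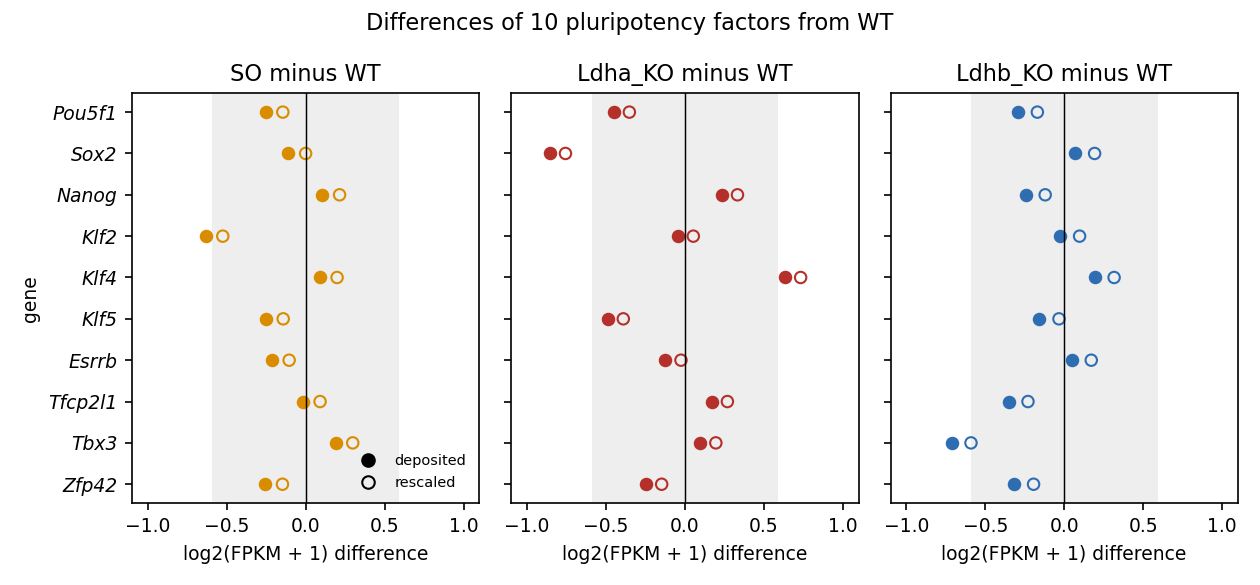
Difference of each factor from WT on the log2(FPKM + 1) scale in SO, Ldha_KO and Ldhb_KO, as deposited (filled) and after rescaling by the median ratio to WT (open); the grey band spans less than 1.5-fold. The filled points outside the band are Klf2 in SO (-0.63), Sox2 (-0.86) and Klf4 (0.63) in Ldha_KO and Tbx3 in Ldhb_KO (-0.71), and rescaling brings Klf2 inside it.

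Of the core factors, Sox2 differed most from WT in Ldha_KO, and Pou5f1 was lower than WT in all 3 other libraries. Pou5f1, the POU factor without which the inner cell mass is not maintained, measured 1330.1 FPKM in WT, against 1115 (SO), 972 (Ldha_KO) and 1084 (Ldhb_KO). WT was the highest library, and the differences of -0.25, -0.45 and -0.29 kept their sign under both rescalings, at -0.14, -0.35 and -0.17 with the median ratio. Sox2, its partner on DNA, measured 371 FPKM in WT, against 344 (SO), 204 (Ldha_KO) and 389 (Ldhb_KO). Ldha_KO was the low library, at 0.551 times WT and 0.525 times Ldhb_KO, while the other 3 lay within 344 to 389. The difference of Sox2 in SO was -0.11 as deposited and 0.05 after every library was brought to the sum of WT, so it has no settled sign.

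Nanog, a homeodomain factor that stabilises the naive network, measured 503 FPKM in WT, against 541 (SO), 591 (Ldha_KO) and 424 (Ldhb_KO). Ldha_KO was the highest and Ldhb_KO the lowest library, and they differed by 0.48. The differences from WT were 0.11, 0.23 and -0.24, none past 1.5-fold. Ratios inside a library do not depend on how libraries are scaled. The ratio of Nanog to Pou5f1 was 0.378 in WT, against 0.485 (SO), 0.608 (Ldha_KO) and 0.391 (Ldhb_KO). The ratio of Nanog to Sox2 was 1.36 in WT, against 1.57 (SO), 2.89 (Ldha_KO) and 1.09 (Ldhb_KO). The 3 core transcripts thus stood in a different proportion in Ldha_KO, with less Sox2 and more Nanog for each Pou5f1 than in the other 3 libraries.

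The 3 Klf factors did not follow each other. Klf2, the most abundant of them, measured 357 FPKM in WT, against 229.9 (SO), 346 (Ldha_KO) and 351 (Ldhb_KO). SO stood alone at 0.643 times WT, a difference of -0.63 that was -0.53 with the median ratio and -0.48 with the summed value, both short of 1.5-fold. In the knockouts Klf2 lay within 0.05 of WT, at -0.05 and -0.03, which turned to 0.05 and 0.10 with the median ratio. Klf4, a target of LIF and Stat3 and one of the original reprogramming factors, measured 124 FPKM in WT, against 133 (SO), 193 (Ldha_KO) and 142 (Ldhb_KO). Ldha_KO was the high library, at 1.56 times WT, and WT was the lowest.

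Klf5, which supports self-renewal and is also needed in the trophectoderm lineage of the embryo, measured 157 FPKM in WT, against 132 (SO), 111 (Ldha_KO) and 141 (Ldhb_KO). Its order over the libraries was the reverse of that of Klf4 at both ends, with Ldha_KO lowest and WT highest. The ratio of Klf4 to Klf5 was therefore 0.793 in WT, against 1.01 (SO), 1.74 (Ldha_KO) and 1.01 (Ldhb_KO). The sum of the 3 Klf factors was 638 FPKM in WT, against 494 (SO), 651 (Ldha_KO) and 633 (Ldhb_KO). SO thus held less Klf transcript in sum, and Ldha_KO about as much as WT in another mix. The share of Klf4 in that sum was 19.5% in WT, against 26.8% (SO), 29.7% (Ldha_KO) and 22.5% (Ldhb_KO), and that of Klf2 was 56.0%, 46.5%, 53.1% and 55.3%.

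**Figure D3:**
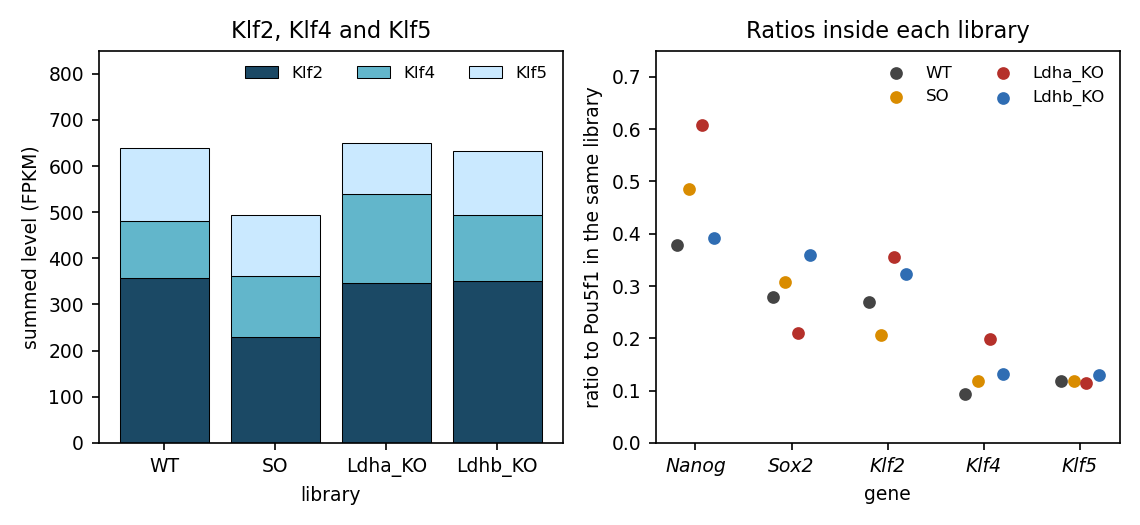
Left, levels of Klf2, Klf4 and Klf5 in FPKM stacked for each library; right, the ratio of Nanog, Sox2, Klf2, Klf4 and Klf5 to Pou5f1 inside each library, 1 point per library. The stack is shortest in SO (494), and Klf4 per Pou5f1 runs from 0.0935 in WT to 0.199 in Ldha_KO while Klf5 per Pou5f1 stays between 0.115 and 0.13.

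Relative to Pou5f1, Klf4 differed by 1.09 on the log2 scale from WT to Ldha_KO, and Nanog by 0.69 and Tfcp2l1 by 0.63. These were the only 3 of the 27 ratios (9 factors in 3 libraries) that differed from WT by 1.5-fold or more. Pou5f1 was itself lower than WT in Ldha_KO (-0.45), which raises every ratio to it there. With the geometric mean of the 10 factors as the reference there were 2 of 30: Sox2 (-0.75) and Klf4 (0.75) in Ldha_KO. Nanog (0.34) and Tfcp2l1 (0.28) then fell short of 1.5-fold. The share of all genes past 1.5-fold on such ratios was not computed, so these counts do not set the factors apart. Klf5 kept step with Pou5f1, with ratios of 0.118 in WT, against 0.118 (SO), 0.115 (Ldha_KO) and 0.13 (Ldhb_KO).

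Of the factors that receive signalling input, Tbx3 was low in Ldhb_KO. Tbx3, a T-box factor, measured 88.0 FPKM in WT, against 101 (SO), 94.2 (Ldha_KO) and 53.3 (Ldhb_KO). Ldhb_KO stood alone, at 0.606 times WT, and the difference of -0.71 was -0.59 with the median ratio and -0.60 with the summed value, both just past 1.5-fold. Ldha_KO held 1.77 times as much Tbx3 as Ldhb_KO. Tfcp2l1, a grainyhead-like factor downstream of LIF, measured 38.8 FPKM in WT, against 38.4 (SO), 43.8 (Ldha_KO) and 30.2 (Ldhb_KO). Ldhb_KO was again lowest and Ldha_KO highest, with a difference of 0.52 between them that is short of 1.5-fold, and WT and SO were nearly equal.

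Esrrb, an orphan nuclear receptor that can stand in for Nanog in self-renewal, measured 239.9 FPKM in WT, against 207 (SO), 219.9 (Ldha_KO) and 248 (Ldhb_KO). It had the narrowest range of the 10. Its difference of -0.12 in Ldha_KO was 0.02 with the summed value, so it has no settled sign. The ratio of Tbx3 to Esrrb was 0.367 in WT, against 0.486 (SO), 0.428 (Ldha_KO) and 0.215 (Ldhb_KO). Zfp42, the zinc finger marker of naive cells, measured 624 FPKM in WT, against 523 (SO), 526 (Ldha_KO) and 500.5 (Ldhb_KO). WT was the highest library and the other 3 lay close together. Its ratio to Pou5f1 was 0.469 in WT, against 0.469 (SO), 0.541 (Ldha_KO) and 0.462 (Ldhb_KO), so in 3 libraries the 2 transcripts kept nearly 1 proportion.

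The genes closest in pattern to the 2 factors with the widest range were sought among 4516 genes with a mean of at least 20 FPKM, by the Euclidean distance of the 3 differences from WT. For Sox2 these were Prr13 (distance 0.11), Urah (0.14) and Gtsf1l (0.16). Prr13 measured 80.5 FPKM in WT, against 74.6 (SO), 47.1 (Ldha_KO) and 81.0 (Ldhb_KO). For Tbx3 they were Wdr6 (0.12), Upf2 (0.14) and Mrpl33 (0.16). Wdr6 measured 62 FPKM in WT, against 66.3 (SO), 68.1 (Ldha_KO) and 35.9 (Ldhb_KO). None of the other 9 factors was among the 3 closest, and with 4 libraries such likeness is a description.

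Beyond the 10 factors, the list of 16 other naive genes differed from WT by a median of -0.02 (SO), -0.15 (Ldha_KO) and -0.20 (Ldhb_KO). With the median ratio these were 0.08, -0.05 and -0.07, so the first has no settled sign. As deposited the list had 0, 0 and 1 members 2-fold higher, against 2.69%, 2.65% and 3.36% of all genes. It had 1, 3 and 2 lower, against 0.472%, 1.06% and 1.09% of all genes. The median over all 13142 genes was -0.04, -0.03 and -0.02. Gbx2, a homeobox factor induced by LIF, was called in all 3 comparisons and under both rescalings, with 27.7 FPKM in WT, against 6.85 (SO), 4.16 (Ldha_KO) and 11.1 (Ldhb_KO). Dppa3 (Stella), an early germline and naive marker, was called lower in Ldha_KO and higher in Ldhb_KO, at 4.03, 4.24, 0.952 and 10.3 FPKM, in the order WT, SO, Ldha_KO, Ldhb_KO that the values of further genes follow. Tdh, the threonine dehydrogenase of mouse embryonic stem cells, was at 336, 236, 164 and 189, a difference of -1.03 in Ldha_KO that fell short of 2-fold under both rescalings (-0.93 and -0.89). Jam2 was at 63.0, 65.6, 51.9 and 28.6, and its difference of -1.11 in Ldhb_KO fell short of 2-fold under both rescalings.

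The list of 16 general pluripotency genes, which mark naive and later pluripotent cells alike, had median differences below 0 in all 3 comparisons with WT under every scaling. Its medians were -0.39, -0.55 and -0.59, against -0.19, -0.16 and -0.19 for the 3316 genes with a mean of at least 30 FPKM, and 14, 15 and 13 of 16 lay below WT. At 2-fold, 0, 3 and 1 of 16 were lower, against 0.472%, 1.06% and 1.09% of all genes, and 0 were higher. With the median ratio the medians were -0.28, -0.45 and -0.46, and 0, 1 and 1 were 2-fold lower. Lin28a, an RNA-binding protein that blocks let-7 maturation, measured 225 FPKM in WT, against 136 (SO), 107 (Ldha_KO) and 157 (Ldhb_KO). Mycn, a Myc family factor, was at 64.5, 43.8, 29.8 and 67.0, and shared with Sox2 a low library in Ldha_KO and a level near WT in Ldhb_KO. In SO the 2 genes were less alike, with Mycn at -0.55 from WT and Sox2 at -0.11. Foxd3, a forkhead factor, was at 18.9, 17.0, 13.0 and 5.54, lowest in Ldhb_KO.

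Formative and primed genes, which mark cells leaving the naive state, likewise had median differences below 0 under every scaling. Of 12 members 11 passed the filter, with medians of -0.46, -0.65 and -0.57 and 3, 3 and 1 members 2-fold lower, against 0.472%, 1.06% and 1.09% of all genes. None of the 11 was 2-fold higher. With the median ratio the counts lower were 1, 3 and 0. Otx2, a homeobox factor of the formative state, measured 61.6 FPKM in WT, against 69.4 (SO), 25.3 (Ldha_KO) and 28.4 (Ldhb_KO). WT and SO were high and both knockouts low, and its difference of -1.09 in Ldhb_KO was -0.97 with either rescaling. Pou3f1 (Oct6), a POU factor of the epiblast, was at 8.09, 6.11, 3.20 and 4.66. Lef1, a Wnt effector, was at 9.51, 2.46, 2.14 and 4.36. Zic2 and Zic5 were 2-fold lower in SO alone, with Zic2 at 42.9, 19.6, 30.7 and 34.0, a call that ended under both rescalings (-0.99 and -0.94).

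Genes of the signalling pathways around the network, inputs and feedback targets alike, had more 2-fold lower calls in Ldha_KO than in SO or Ldhb_KO. Of 16 such genes, 0, 5 and 2 were 2-fold lower and 0 higher (SO, then Ldha_KO, then Ldhb_KO), against 0.472%, 1.06% and 1.09% of all genes 2-fold lower. The medians were -0.14, -0.20 and -0.15, or -0.03, -0.11 and -0.03 with the median ratio. With the summed value the median in SO was 0.02. As deposited, the medians of the 3316 genes with a mean of at least 30 FPKM were -0.19, -0.16 and -0.19. Those of all 13142 genes were -0.04, -0.03 and -0.02. The 5 in Ldha_KO were Socs3, Bmp4, Dusp6, Spry2 and Spry4, and with either rescaling 4 were called. Socs3, the feedback inhibitor and a direct target of Stat3, measured 76.3 FPKM in WT, against 66.9 (SO), 16.0 (Ldha_KO) and 125 (Ldhb_KO). Genes known as targets of LIF signalling went both ways in Ldha_KO, the library where Socs3 was lowest. Klf4 was at its highest there (193 FPKM, WT 124), and Gbx2 was at its lowest (4.16 FPKM, WT 27.7). Tfcp2l1 was also at its highest there, but by a difference of only 0.17 from WT (43.8 FPKM, WT 38.8). The part of LIF signalling was not tested. Spry4, a feedback inhibitor of FGF signalling, was at 111, 75.3, 15.6 and 80.0, and Spry2 at 72.1, 59.2, 17.8 and 33.4. Bmp4, the ligand that acts with LIF through Id genes, was at 58.1, 54.7, 20.3 and 20.8. Id1 was at 182, 197, 223 and 308, past 1.5-fold higher in Ldhb_KO (0.75), and Id3 was at 81.8, 105, 82.0 and 59.8. Neither Id gene had the pattern of Bmp4, and the part of Bmp4 in their levels was not tested.

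**Figure D4:**
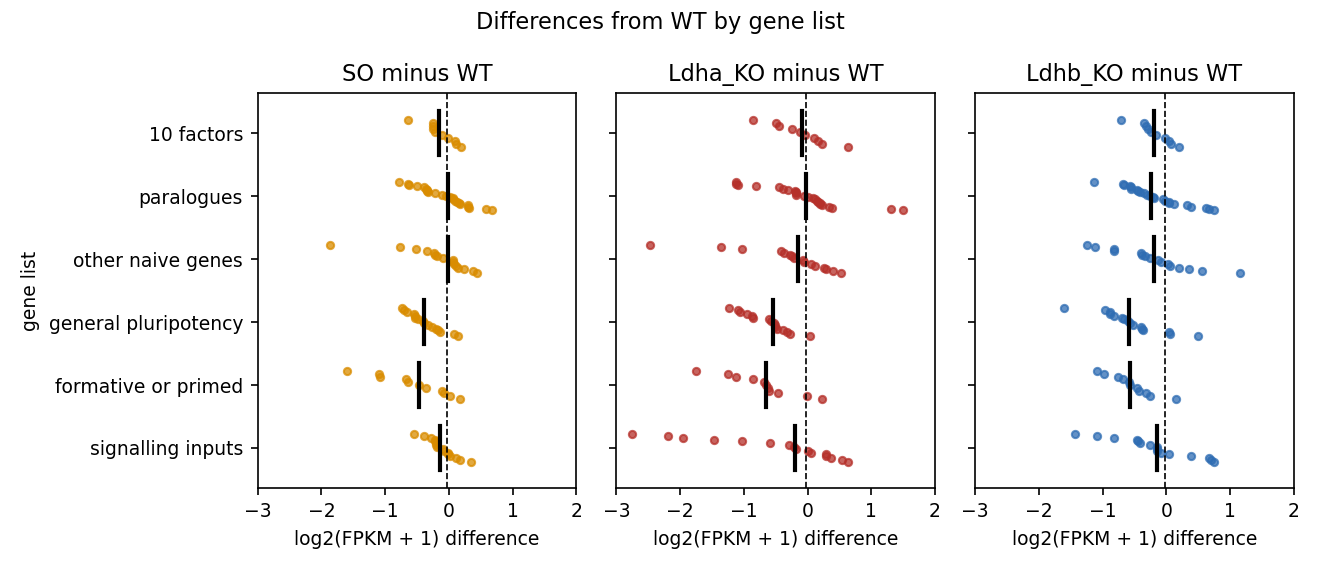
Differences from WT on the log2(FPKM + 1) scale for the 10 factors and 5 related gene lists, 1 point per gene that passed the filter, with a black bar at each list's median and a dashed line at the median of all genes kept. The 10 factors spread between -0.86 and 0.63, and the general and the formative or primed lists have their medians between -0.39 and -0.65.

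Transcripts of the 2-cell-like state, set beside the factors, were high in SO and Ldha_KO. The 7 markers Zscan4c, Zscan4d, Zscan4f, Tcstv3, Zfp352, Dux and Usp17lc summed to 7.15 FPKM in WT, against 52.9 (SO), 36.2 (Ldha_KO) and 6.64 (Ldhb_KO). Of the 6 past the filter, 6 (SO), 5 (Ldha_KO) and 0 (Ldhb_KO) were 2-fold higher, against 2.69%, 2.65% and 3.36% of all genes. Zscan4c, Zscan4d and Zscan4f made 16.9, 14.5 and 6.75 of the sum in SO and 10.6, 10.5 and 4.10 in Ldha_KO. The Zscan4 copies are near-identical, so reads may be split among them. Zfp352 in Ldha_KO (0.597 FPKM, WT 0.186) fell short of 1.5-fold, and Dux was at 0.161 in SO, 0.254 in Ldha_KO and 0 in WT and Ldhb_KO. Of the 10 factors, those that lay below WT numbered 7 (SO), 6 (Ldha_KO) and 7 (Ldhb_KO) as deposited. These numbers were 6, 5 and 6 with the median ratio and 5, 4 and 6 with the summed value. As deposited, the 3316 genes with a mean of at least 30 FPKM had medians of -0.19, -0.16 and -0.19. Abundant genes in general thus also tended to lie below WT, and the numbers do not set the factors apart from them.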

How the data were processed

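Polyadenylated RNA of mouse embryonic stem cells was sequenced in 4 libraries, 1 per group. The submitters' processing notes name edgeR 3.26.8, HTSeq 0.11.2, Bowtie2 2.3.4.3, SAMtools 1.9 and the build mm9, without saying what each tool did or which annotation was used. The authors deposited 1 value per gene symbol for 25170 symbols, read as FPKM from the values alone (RPKM would look the same). The smallest values above 0, such as 2.65e-07 in WT, are far below the worth of 1 read, and the labels do not state how such values arose. No source used here states the number of reads, so no counting interval was computed.

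With 1 library per group no test was possible, and every difference compares 2 libraries without a replicate check. Differences were taken on the log2(FPKM + 1) scale, with a pseudocount of 1, over the 13142 genes with at least 1 in at least 1 library. A gene was called at 2-fold or at 1.5-fold on that scale, which understates the change of low genes. The alternatives were a pseudocount of 0.1, no filter, a filter of 5, and rescaling, either to the sum of all values in WT or by the median ratio to WT over 8293 genes with at least 5 in every library. Relative depth was estimated from the most frequent ratio of 2 libraries among genes below 0.2, of which 50.5% to 63.3% matched, to within 0.2%, a quotient of read numbers from 1 to 4. The code for differences and calls was run on simulated data. Python 3.11.15, numpy 2.4.6, pandas 2.3.3 and matplotlib 3.10.9 were used.

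The 10 factors and all gene lists were chosen with earlier results of these data known. Named genes were the 10 factors, Ldha and Ldhb, of each list up to 4 genes with the largest difference from WT and at least 5 FPKM in the higher library, and the 3 genes closest in pattern to each of the 2 factors with the widest range, among genes with a mean of at least 20 FPKM. Dusp6, Zic5, Id1, Id3, Tbx3os2 and the trophectoderm factor Cdx2 were named after their values were seen. So were the primitive endoderm genes and the fibroblast genes Lum and Dcn. The background of genes with a mean of at least 30 FPKM was also chosen after values were seen. Upstream windows came from RefSeq's table for GRCm38.p6. Coordinates are of that build, not of mm9. A gene that the rule names in the general pluripotency list is not reported here.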

Additional observations from a re-analysis of the deposited data

How the results depend on the processing

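The count of factors past 1.5-fold in SO against WT, 1 as deposited, was 0 after rescaling to the sum of WT and 0 with the median ratio, where Klf2 was at -0.48 and -0.53. The other counts of factors at 1.5-fold, and all counts of 0 at 2-fold, were the same under every alternative run. Of 200 values of single factors under an alternative, 189 kept their sign and side of 1.5-fold, 2 (those of Klf2) fell short of it and 9, none past 1.5-fold, changed sign. The sign changes came from the rescalings alone, which move all genes of a library together. Rescaling also moved the share of higher genes among all genes past 1.5-fold, from 65.9% to 84.8% (summed value) and 80.2% (median ratio) in SO, from 58.6% to 77.5% and 73.3% in Ldha_KO and from 63.6% to 78.2% and 78.6% in Ldhb_KO. No paired analysis was possible because each group has 1 library, and for the same reason no library could be left out. Depth in reads is unknown, so counting error could not be set beside any difference, and differences near 0.1 cannot be told from the shift between libraries.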

Other observations

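Paralogues of the 10 factors, 30 genes of which 24 passed the filter, differed from WT by a median of -0.01 (SO), -0.02 (Ldha_KO) and -0.23 (Ldhb_KO), or 0.08, 0.07 and -0.13 with the median ratio. At 2-fold, 0, 2 and 0 of the 24 were higher, against 2.69%, 2.65% and 3.36% of all genes. The counts lower were 0, 3 and 1, against 0.472%, 1.06% and 1.09%. In Ldha_KO 12 of the 24 lay above WT and 12 below, so the list had no common direction there. Klf6 and Klf11, zinc finger relatives of Klf4, were 2-fold higher in Ldha_KO, the library where Klf4 was highest, under all scalings. Klf6 measured 8.48 FPKM in WT, against 10.7 (SO), 25.9 (Ldha_KO) and 14.1 (Ldhb_KO), and Klf11 measured 11.4, 14.2, 29.9 and 14.5. Klf15, of the same family, went the other way in Ldha_KO (7.25, WT 16.9), with a difference of -1.12 that fell just short of 2-fold with the summed value. Sox4 was low in both knockouts, at 14 and 13.5 against 30.8 in WT and 19.4 in SO, and its difference of -1.09 in Ldha_KO was -0.99 and -0.96 under the rescalings.

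Sox2ot, whose transcripts surround Sox2, measured 1.51 FPKM in WT, against 1.65 (SO), 0.907 (Ldha_KO) and 1.17 (Ldhb_KO), lowest in the same library as Sox2. Tbx3os2, named for Tbx3, was at 1.36, 1.37, 1.58 and 1.43 and was not lowest in Ldhb_KO, where Tbx3 was. Both lay near 1 FPKM, the value of the filter.

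The median difference of all genes on each chromosome that holds a factor, from RefSeq's chromosome names for 13065 of 13142 genes, lay between -0.08 and 0.06 in all comparisons. For chromosome 3, which holds Sox2, it was 0 in Ldha_KO against WT, and for chromosome 5, which holds Tbx3, it was -0.08 in Ldhb_KO against WT.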
